A study of Mus musculus with 12 samples.

Results

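The data described here are the sites on mRNA that were recovered with an antibody against RBM25 from mouse inner ear organoids in which Rbm25 had been knocked down, set against organoids with normal Rbm25. There were 4 antibody libraries (IP libraries), each with its own deposited list of sites: depleted IP 1, depleted IP 2, control IP 1 and control IP 2. Sites of the 4 lists that shared 1 bp or more were merged, which gave 1375 regions in 892 genes from 2165 sites, out of 5463 sites in the 12 lists of the whole series. Of these, 570 regions and 416 genes were listed by both control IP libraries. A region was counted as lost when both control lists and neither depleted list held it, as kept when 1 or both depleted lists still held it, and as gained when both depleted lists and neither control list held it. Whole genes were sorted by the same rule over all of their sites, so that the disappearance of 1 site could be told from the disappearance of every site of a gene.

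Depleted organoids had received a lentivirus for RBM25 knockdown and are labelled Rbm-KO, although the treatment given is a knockdown. Control organoids had received a control lentivirus and are labelled WT. Both were grown from dissociated cochlear epithelium of mice on postnatal day 1 to 2, expanded in Matrigel with EGF, bFGF, IGF and the Wnt pathway activator CHIR99021, and then differentiated with CHIR99021 and the gamma-secretase inhibitor LY411575, followed by low EGF and bFGF. Nothing in the labels says that the numbered libraries of a condition came from separate cultures or animals, so p-values here reflect no more than how far these samples differ from one another, and that spread could be technical.

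RBM25 is an RNA-binding protein of the splicing machinery. It carries an RNA recognition motif, arginine and glutamate rich stretches and a PWI domain, associates with the U1 snRNP that marks 5′ splice sites, and is known in human cells for shifting the splicing of the apoptosis gene Bcl-x through the exonic element CGGGCA. RNA immunoprecipitation recovers RNA that stays with the protein in a cell lysate. RNA that sticks to beads or to any antibody is recovered too, which is why a nonspecific antibody (IgG) is run beside it.

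The sequences below are the first 30 bases of listed sites that lay at a transcription start listed in the RefSeq promoter table. A gene can have several such starts, which need not be the outer edge of its annotated interval. They are shown because they include splicing factors and named genes on both sides of the comparison. They are RefSeq sequence of GRCm38.p6 on the strand of the gene, 5′ to 3′ in DNA letters, and capitals mark CGGG, the first letters of the known RBM25 element CGGGCA. Those of Ptpn21, Ccnl2, Trim28 and Srsf5 come from lost regions, those of Srsf7 and Hist1h1e from regions kept in depleted IP 1, that of Pias1 from a region kept in depleted IP 2, and that of Srsf2 from a region listed in depleted IP 1 only.
Ptpn21, chr12:98737376-98737405, minus strand: agagccggagcgcggccccgacccggCGGG
Ccnl2, chr4:155812489-155812518, plus strand: ccctgaCGGGaagggcccgagaagagtcgg
Trim28, chr7:13024152-13024181, plus strand: ggacctgcgcgctcaagcacgCGGGttgcc
Srsf5, chr12:80945504-80945533, plus strand: attttgtgcaacgtccgagctgctaagtgc
Srsf7, chr17:80207276-80207305, minus strand: gtagtgccgcCGGGattgcaggcagaggag
Hist1h1e, chr13:23622529-23622558, minus strand: cccgagtcctggccagtccctctgcttccg
Pias1, chr9:62980850-62980879, minus strand: gacgcaagatggcggacagtgcggaactaa
Srsf2, chr11:116853061-116853090, minus strand: agttgctgctcaggcgtccgtcaggttcgg

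Outside chromosome 18, which was left out of these counts of regions but not of the counts over all starts, 44 regions qualified. They had 30 bases within the first 50 transcribed bases after such a start, and 13 of them were lost, 5 were kept and 25 were listed in 1 depleted list only. The full element CGGGCA lay in none of the 44 on the strand of the RNA and in 1 on the opposite strand. Among the first 50 bases of all 32851 annotated starts it lay in 1.23% on the RNA strand and in 1.11% on the opposite strand. Its first letters, CGGG, lay in the first 30 bases of 13 of the 44 regions (29.5%), of which 5 were among the 13 lost ones, against 14.4% of all starts. Start regions of lost sites were rich in G and C, with a median GC content of 70%, and so were those kept in depleted IP 1 (63.4%) and those listed in depleted IP 1 only (66.7%), while all starts had a median of 56.7%. These matches describe a few bases at gene starts and say nothing of sites elsewhere in the genes, whose sequence was not used here.

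The depleted IP lists did not resemble each other, and this bears on every count below. Depleted IP 1 held 813 sites in 540 genes and depleted IP 2 held 165 sites in 110 genes, while control IP 1 and control IP 2 held 594 and 593 sites in 430 and 432 genes. Depleted IP 1 and depleted IP 2 shared 6 overlapping sites, which is 0.738% of the sites of depleted IP 1 and 3.64% of those of depleted IP 2, whereas 570 sites, 96% of control IP 1, overlapped control IP 2. Means were 489 ± 458 sites in depleted and 593.5 ± 0.707 in control lists (SD, n = 2 each), a difference of -104.5 with a two-sided exact permutation p of 1. For genes the means were 325 ± 304 and 431 ± 1.41 (SD, n = 2 each), a difference of -106 with an exact permutation p of 1. No comparison of 2 lists against 2 can give a two-sided p below 0.333. Leaving out depleted IP 2 turned both differences round, to 219.5 sites and 109 genes more in depleted IP 1 than in the control lists. Sequencing depth is unknown, since the lists hold no read counts, and the part of depth in these list lengths was not tested.

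Rbm25 itself, the knocked-down gene, had 2 sites in depleted IP 1, at chr12:83664140-83664259 with a fold of 1237 and at chr12:83668092-83668173 with a fold of 1873, and none in depleted IP 2, control IP 1 or control IP 2. The lists show sites on RNA and not RNA levels, so they do not check how far Rbm25 was knocked down. Cell type markers were looked for in the same lists. In all, 892 genes had an IP site, but the lists do not give the number of expressed genes. No share over all genes therefore stands beside the marker counts. Of 10 hair cell markers 1 (Barhl1) had an IP site, of 10 supporting cell markers 0, of 10 markers of otic and cochlear epithelium 3 (Krt8 in depleted IP 2, Epcam in depleted IP 1 and both control lists, Krt18 in both control lists), of 10 mesenchyme markers 4, of 10 glial and neuronal markers 1 (Sox10, in depleted IP 1), of 10 blood and immune markers 1 (Hbb-bs, in depleted IP 2) and of 8 endothelial and melanocyte markers 0. A gene that a list does not hold may still be expressed.

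After depletion, 384 of the 570 regions shared by the control IP lists were in neither depleted list, a background share of 67.4% (95% Clopper-Pearson interval 63.3 to 71.2, which covers the counting of regions only). A further 131 regions (23.0%) were kept in depleted IP 1 alone, 53 (9.30%) in depleted IP 2 alone and 2 (0.351%) in both. Measured against depleted IP 1 alone, 437 regions (76.7%) were missing, and against depleted IP 2 alone, 515 (90.4%). Of the 416 genes shared by the control lists, 248 (59.6%) had no site in either depleted list. Another 120 (28.8%) had a site in depleted IP 1 alone, 41 (9.86%) in depleted IP 2 alone and 7 (1.68%) in both. These genes are called kept below, although the depleted site could be at a new position. In 23 genes with a lost region all depleted sites were at new positions. Gains in both depleted lists were few, with 2 of 1375 regions (0.145%) and 5 of 892 genes (0.561%). In contrast, 669 regions (48.7%) and 400 genes (44.8%) were listed by depleted IP 1 only, and 87 regions (6.33%) and 41 genes (4.60%) by depleted IP 2 only. Just 8 regions were in control IP 1 only and 11 in control IP 2 only, and 28 regions were in 1 control list and at least 1 depleted list.

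Of the 384 lost regions, 331 lay in 247 genes with no depleted IP site anywhere, and 53 lay in 40 genes that still had a depleted IP site at another position. Most lost regions thus lay in genes that the depleted lists did not hold at all. In 81 of the 247 genes several shared regions had all gone. The others had a single lost region, where loss of the region and loss of the gene are hardly separate counts. Col1a1, a fibrillar collagen of mesenchyme, was the only gene lost without a shared region: it had no depleted IP site, against 1 site of fold 20.0 in control IP 1 and 2 sites of at most fold 37.05 in control IP 2 that did not overlap. Its IgG lists held 0 sites in both depleted and 9 and 12 sites in the control libraries.

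The fold of a site is the authors' enrichment over the background of their peak caller, and it exists only where a list holds the site. Folds of different lists are set side by side below as a description, because each list has its own background. The highest folds of all lost regions were in Hoxc4, a homeobox transcription factor gene, at chr15:103035637-103035890, which had no site in depleted IP 1 or 2, against folds of 85670 in control IP 1 and 77526 in control IP 2. That region also overlapped a site of control IgG 1. The next were far lower. Wdr8, a WD-repeat gene, lost chr4:154151693-154151731 (folds of 5388 in control IP 1 and 6481 in control IP 2). The gene was not lost, since a region 829 bp away was kept in depleted IP 2 with a fold of 40.43. That region had 5417.5 in control IP 1 and 6501 in control IP 2. Nup160, a scaffold subunit of the nuclear pore, lost chr2:90721190-90721350 (5765 and 5085). Ogdhl, which encodes an enzyme like the E1 subunit of the oxoglutarate dehydrogenase complex, lost both of its regions, chr14:32346398-32346415 (5210 and 6441) and chr14:32344923-32345008 (6562.5 and 4895).

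Genes that lost several regions and had no depleted IP site left came from many parts of cell biology. Dsp, which encodes the desmosome protein desmoplakin, lost 3 regions, whose control folds were 1268, 95.83 and 42.63 in control IP 1 and 1057, 99.39 and 70.92 in control IP 2, and the weakest of these overlapped sites of both control IgG lists. Klhl20, an adaptor of a cullin ubiquitin ligase, lost 3 regions with folds of 521.5, 395.0 and 151.67 in control IP 1 and 1049, 787.5 and 206.67 in control IP 2. The stronger pair overlapped sites of both depleted IgG lists, and the third overlapped none. Akap8l, a nuclear A-kinase anchoring protein, lost 3 regions with folds of at most 292 in control IP 1 and 567 in control IP 2, none of them in an IgG list. The next genes each lost a pair of regions that no IgG list held. For Mad1l1, a component of the spindle checkpoint, the highest folds were 5071 in control IP 1 and 3272.5 in control IP 2. Ints9, a subunit of the Integrator complex that cleaves small nuclear RNA precursors, had 4628 and 3467.5. Brd9, a bromodomain subunit of a BAF chromatin remodelling complex, had 3407 and 3511, and Ptpn21, a protein tyrosine phosphatase, 3267 and 2803. In all of these genes both control lists held the lost regions, at high or low folds, and neither depleted list held a site.

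Strong and weak sites were both lost. Ordered by mean control fold, 107 of the lowest 143 regions were lost (74.8%, mean folds of 3.48 to 88.1), 115 of the next 142 (81.0%, 90.6 to 336), 86 of the 142 after those (60.6%, 340 to 1030) and 76 of the highest 143 (53.1%, 1030 to 81600). The median fold of lost regions was 215 in control IP 1 and 256 in control IP 2. Within the control lists these folds kept much the same order over the 384 regions (Spearman's coefficient 0.93, a description across sites of 2 libraries). In both control lists 296 (77.1%) reached the ceiling of the score scale, near 3100. The lowest false discovery rate that the authors gave any site was 1.76% in depleted IP 1 and 25.51% in depleted IP 2, against 16.19% in control IP 1 and 17.35% in control IP 2.

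**Figure D1:**
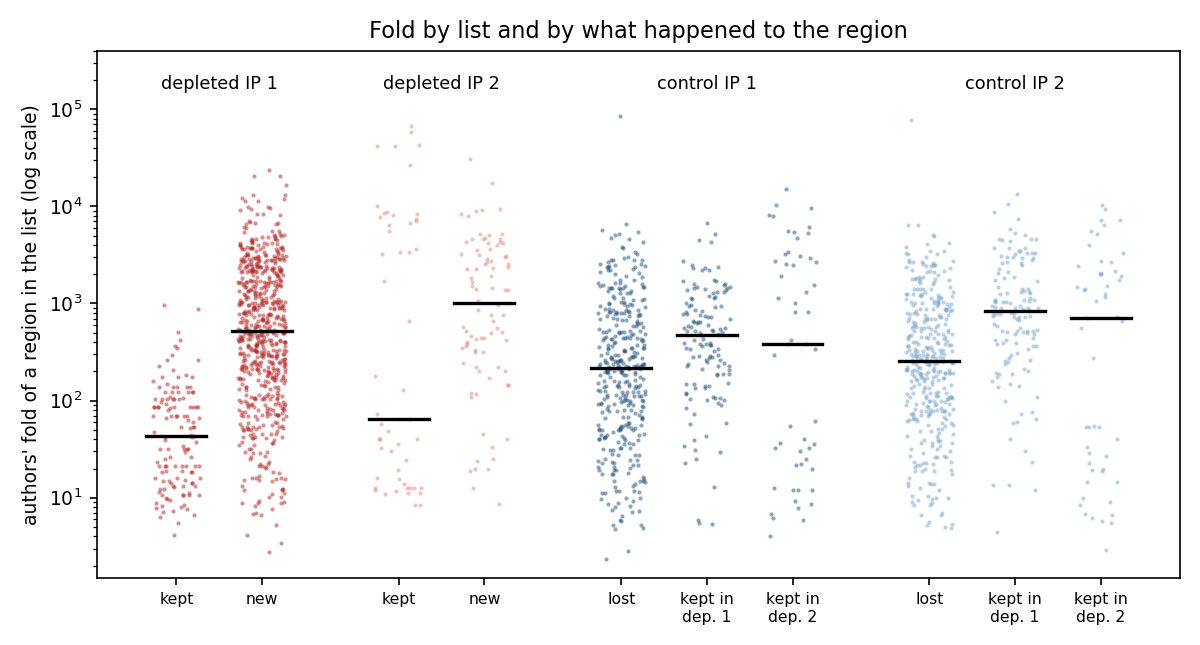
Each point is the authors' fold of 1 region (log axis) in a given IP list, by class of region, and black bars are medians. Lost regions span nearly the whole range of control folds, with medians of 215 and 256, and regions listed only by depleted IP 1 or only by depleted IP 2 have medians of 521 and 1010.

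IgG sites were fewer at lost regions than at regions kept in depleted IP 1. Of the 384 lost regions, 104 (27.1%) overlapped a site in both depleted IgG lists, and 264 (68.8%) overlapped no site in any of the 4 IgG lists. Median folds were alike whether or not depleted IgG held the region: 178 in control IP 1 and 273 in control IP 2 where both depleted IgG lists did, 244 and 258 where neither did. Of the 248 lost genes, 69 had a site in both depleted IgG lists and 169 had none in any IgG list. The lists hold no RNA levels, so less RNA and less RNA recovered with RBM25 cannot be told apart at any lost region. In organoids of mixed cells, fewer cells of a type and less RNA per cell cannot be told apart either.

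**Figure D2:**
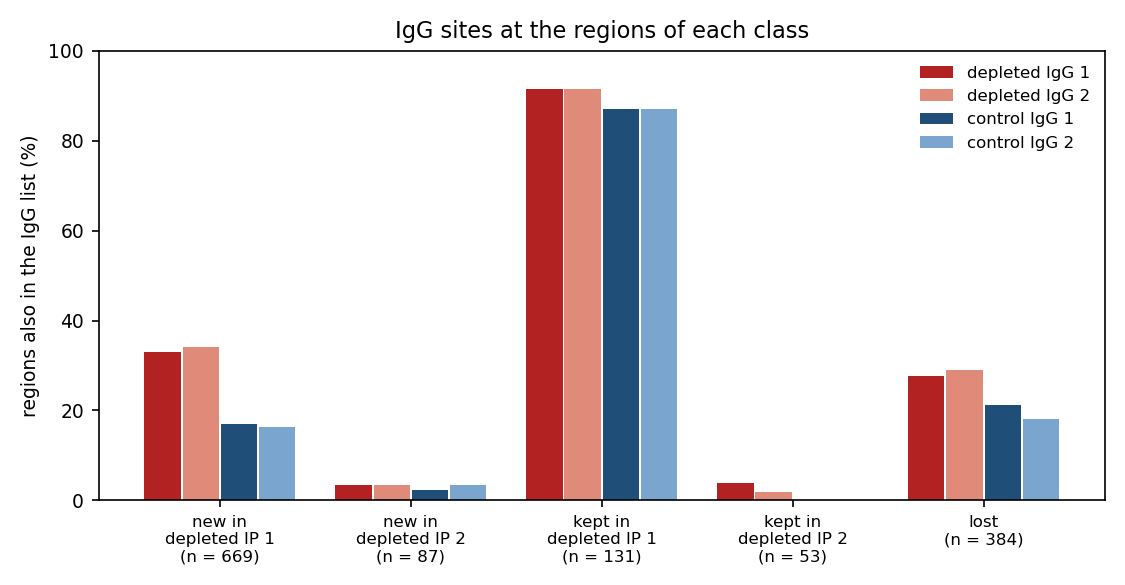
Bars give the percent of regions of each class that also overlap a site in depleted IgG 1, depleted IgG 2, control IgG 1 and control IgG 2 (y axis, percent). Bars reach 91.6% for regions kept in depleted IP 1, between 18.2% and 28.9% for lost regions, and at most 3.77% for regions kept in depleted IP 2.

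In 40 genes a region was lost while the gene kept a depleted IP site, in depleted IP 1 for 28 of them, in depleted IP 2 for 10 and in both for 2 (Col9a1 and Senp2). In 23 of the 40 genes the depleted sites were all at new positions, and in 17 a shared region was kept. The nearest depleted site lay a median of 3277 bp from the lost region, with a range of 21 to 54786 bp, and 11 genes had it within 1000 bp. Loss of a region in these genes was loss at that position and not of the gene.

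Ccnl2, a cyclin that associates with splicing factors, kept chr4:155820973-155821114 in depleted IP 2 with a fold of 13.75, against 1126 in control IP 1 and 1252 in control IP 2. Its other regions were lost: chr4:155821812-155821920, 697 bp away, had 1110 and 1316 in the control lists, and the region at the listed start shown above, 2.27 to 2.54 kb inside the annotated gene, had 55.0 and 91.26. Dennd2a, a regulator of Rab GTPases, kept a region with a fold of 68.9 in depleted IP 1, against 262.95 in control IP 1 and 729.06 in control IP 2, and lost a region 454 bp away with 113.12 in control IP 1 and 192.78 in control IP 2. A region 0.278 to 0.485 kb inside the annotated gene, with 357.51 in control IP 1 and 550.0 in control IP 2, was lost too.

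In other genes the depleted site was at a new position. Mta2, a subunit of the NuRD chromatin complex, had a new site of fold 647.92 in depleted IP 1, present in all 4 IgG lists, and lost a pair of regions 7917 bp or more away whose highest folds were 739.33 in control IP 1 and 696.84 in control IP 2. Specc1l, a cytoskeletal protein, had new sites of 891.31 and 246.44 in depleted IP 1, at least 31447 bp from lost regions of 814.29 and 684.0 in control IP 1 and 404.79 and 370.62 in control IP 2. Supt16, a subunit of the histone chaperone FACT, had new sites of 286.18 and 103.34 in depleted IP 1, the weaker one 1365 bp from the nearest of the lost regions of 504.38 and 446.67 in control IP 1 and 483.63 and 570.83 in control IP 2. Ddx17, an RNA helicase and splicing cofactor, had 279.44 at a new position in depleted IP 1 and lost a pair of regions with 111.55 and 80.2 in control IP 1 and 191.88 and 120.86 in control IP 2. Ywhaz, a 14-3-3 signalling adaptor, had new sites of 553.28 and 345.64 in depleted IP 2, 15413 bp or more from lost regions of 67.12 and 27.44 in control IP 1 and 59.09 and 31.61 in control IP 2. Specc1l, Supt16, Ddx17 and Ywhaz had no site in a depleted IgG list.

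**Figure D3:**
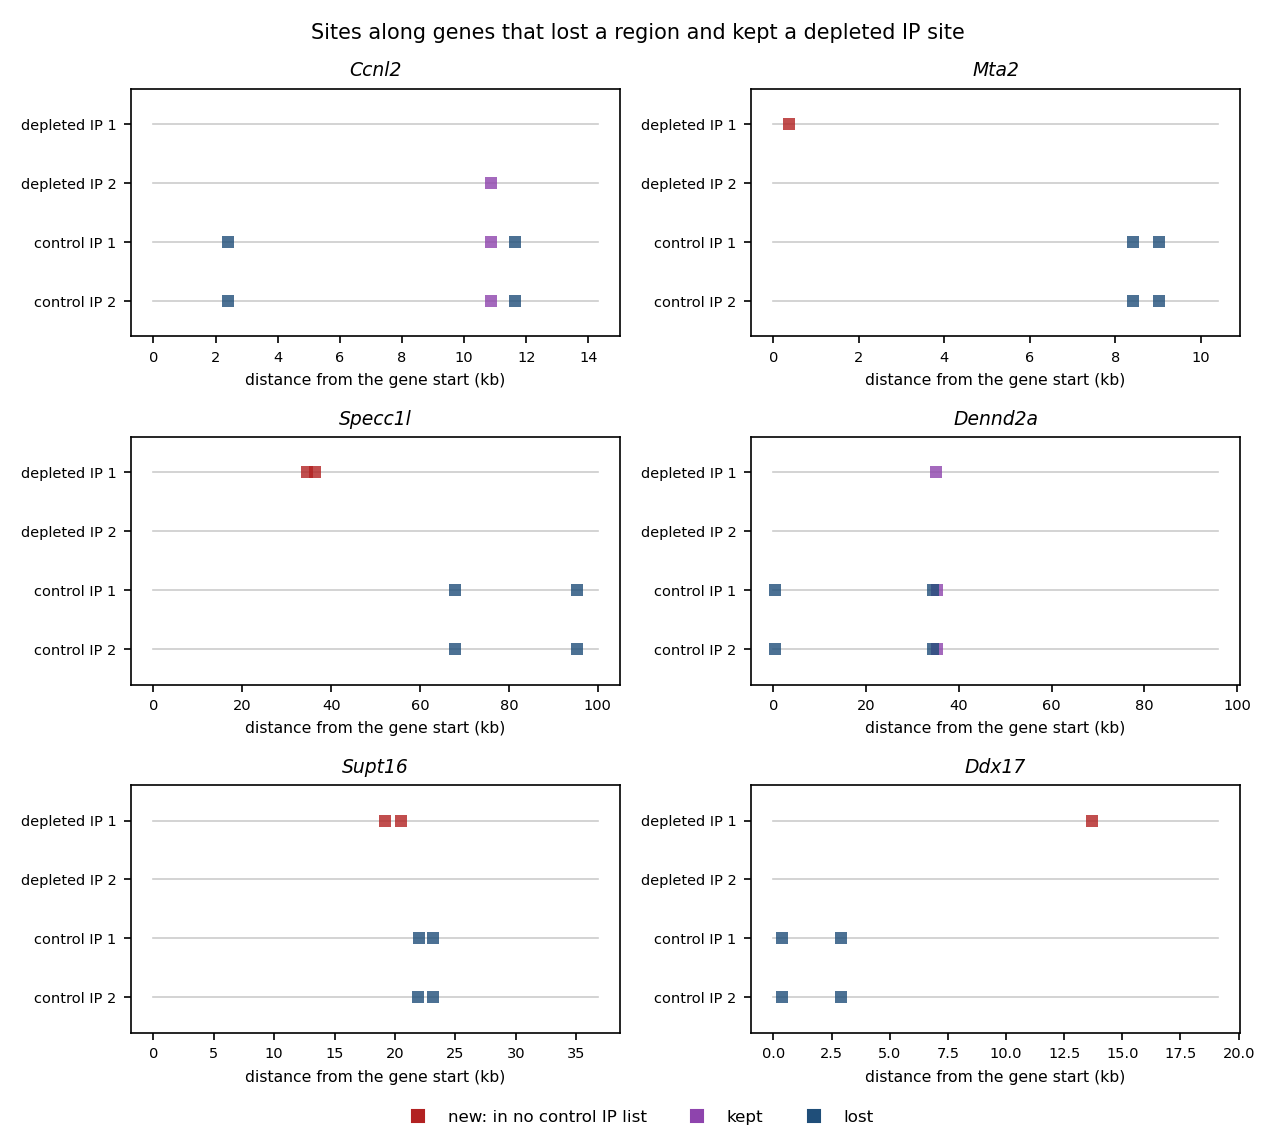
Positions of IP sites along 6 genes that lost a region but kept a depleted IP site (x axis, kb from the start of the annotated gene), with rows for depleted IP 1, depleted IP 2, control IP 1 and control IP 2. Lost regions are dark blue, kept regions purple and new depleted sites red; in Specc1l the new sites lie at least 31447 bp from the lost ones, while in Ccnl2 the kept and the nearest lost region are 697 bp apart.

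Most regions kept in depleted IP 1 had lower folds there than in the control lists. The 131 regions, in 104 genes, had a median fold of 43.4 in depleted IP 1, against 471 in control IP 1 and 840 in control IP 2. In 96 the fold was over 10 times lower than the control mean, in 34 it was within 10 times of it and in 1 it was over 10 times higher. Scores went the same way, since 126 were at the ceiling in both control lists and 9 in depleted IP 1. The authors' false discovery rate was 100% for 63 of them (48.1%) in depleted IP 1. Boundaries were often unchanged, with identical ends in 80 of 131. A large share of these regions overlapped IgG sites: 120 (91.6%) were in both depleted IgG lists and 114 (87.0%) in each control IgG list, against 27.1% of the lost regions in both depleted IgG lists. The part of antibody-independent recovery in these sites was not tested.

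Rarg, the retinoic acid receptor gamma, kept 3 regions in depleted IP 1 with folds of 18.55, 37.1 and 14.13, against 717.5, 297.0 and 189.75 in control IP 1 and 869.29, 790.0 and 416.11 in control IP 2. It also had new sites of 423.98 and 211.99 in depleted IP 1. Dock8, a guanine nucleotide exchange factor, kept 2 regions with 104.19 and 86.82, against 2234 at both in control IP 1 and 4571 and 4561 in control IP 2. Slc12a5, the potassium chloride cotransporter of neurons, had the same pair of folds in depleted IP 1, 104.19 and 86.82, against 1709 at both in control IP 1 and 3702 at both in control IP 2. The folds 86.82 and 104.19 recurred in several genes of depleted IP 1. Poc1b, a centriole protein, kept 2 regions with 79.5 and 63.6, against 2302 and 1750 in control IP 1 and 3440 and 4577 in control IP 2. Loxl3, a lysyl oxidase that crosslinks matrix, kept 2 with at most 138.92, against 1571 in control IP 1 and 3299 in control IP 2. Zfp692, a zinc finger gene, had 86.82 at both of its regions, against at most 1456 in control IP 1 and 3482 in control IP 2. Marc2, a mitochondrial amidoxime reductase, reached 121.55, against 1469 and 2923 in control IP 1 and control IP 2. Scaf11, a serine and arginine rich splicing-associated factor, reached 66.25, against 1118 and 3080. All 8 of these genes also had sites in all 4 IgG lists.

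In 10 of the 131 regions (7.63%) the fold was higher in depleted IP 1 than the mean of the control lists. Slc9a3r1, which encodes the membrane scaffold NHERF1, had 969.84 at chr11:115163850-115163951, against 149.14 in control IP 1 and 159.79 in control IP 2. Tlcd1, a membrane lipid regulator, had 146.67, against 5.56 and 13.44 in control IP 1 and control IP 2. Ybx1, a cold shock domain RNA-binding protein, had 85.2, against 22.95 and 23.07. These 3 were chosen after their values were seen.

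Regions kept in depleted IP 2 formed separate sets, and none had folds within 10 times of the control mean. In 30 of the 53 regions, in 24 genes, the depleted fold was over 10 times lower: the median was 17.6 in depleted IP 2 (8.33 to 177.9), against 2710 in control IP 1 (296.6 to 15084) and 2020 in control IP 2 (274.29 to 10205). All 30 had a false discovery rate of 100% in depleted IP 2 and none had it in a control list. In the other 23 regions, in 15 genes, the order was the opposite: the median was 7820 in depleted IP 2 (665.03 to 66494), against 20.0 in control IP 1 (4.07 to 62.32) and 19.1 in control IP 2 (2.88 to 54.26). Of these 23, 22 had a false discovery rate of 100% in each control list and none had it in depleted IP 2. Across all 53 regions the rank correlation of depleted IP 2 with the control mean was therefore negative (Spearman's coefficient -0.641), while control IP 1 and control IP 2 had 0.947. In the regions kept in depleted IP 1 the corresponding values were 0.478 and 0.876. These correlations are across regions of single lists and carry no test. Almost none of these regions touched IgG, since 51 of 53 (96.2%) overlapped no IgG site.

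Among the regions that were weak in depleted IP 2 was a pair in Evc, a regulator of Hedgehog signalling at the cilium, with folds of 64.69 and 40.0, against 8003 and 8052 in control IP 1 and 7230 and 7267 in control IP 2. Pias1, a SUMO ligase, had 35.71 and 12.5, against 1537.5 and 422.05 in control IP 1 and 5513 and 555.33 in control IP 2. D5Ertd579e, a gene of unassigned name, had 12.5 at both regions, against 3424 and 2520 in control IP 1 and 2647.5 and 3335 in control IP 2. Eps15l1, an endocytosis adaptor, had 72.78 and 48.52, against 1939 and 3240 in control IP 1 and 1388 and 2030 in control IP 2. Eif2d, a translation initiation factor, had 64.69 and 57.14, against 2467.5 and 1008 in control IP 1 and 2160 and 1738 in control IP 2. Ppp2r5a, a regulatory subunit of protein phosphatase 2A, had 12.5 at both, against 1315 and 343.61 in control IP 1 and 1399 and 716.25 in control IP 2.

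Ppip5k2, an inositol phosphate kinase, was on the opposite side, with 26388 and 6431 in depleted IP 2, against 62.32 and 21.6 in control IP 1 and 53.26 and 19.2 in control IP 2. So was Col9a1, which encodes a chain of collagen IX, a collagen of cartilage and of the tectorial membrane, with 5641 and 1708 in depleted IP 2, against 9.17 and 4.07 in control IP 1 and 14.38 and 2.88 in control IP 2. The cell cycle genes of this set are given with their group below.

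**Figure D4:**
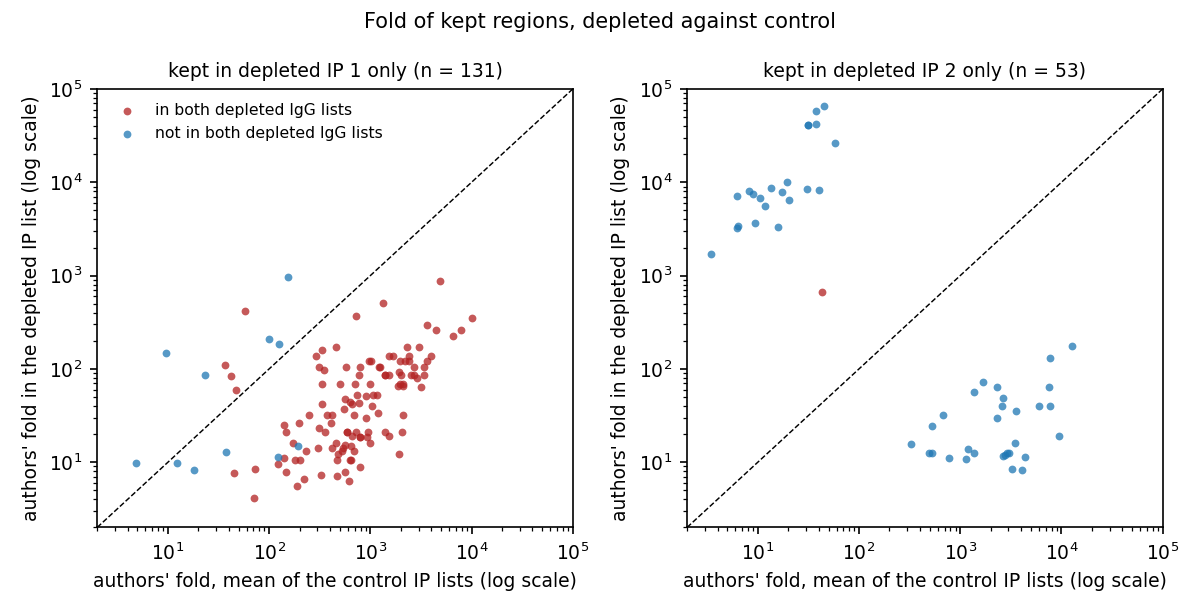
The authors' fold in the depleted list (y axis, log) is plotted against the mean fold of the control lists (x axis, log) for the 131 regions kept in depleted IP 1 and the 53 kept in depleted IP 2; the dashed line marks equal folds and red points overlap both depleted IgG lists. Most points of depleted IP 1 lie below the line, and those of depleted IP 2 form a cloud of 30 far below it and a cloud of 23 far above it.

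A similar contrast was seen in the 28 regions that 1 control list and at least 1 depleted list held. The depleted fold was higher in 27 of them, with medians of 3960 on the depleted and 8.79 on the control side, where the median false discovery rate was 100%. Depleted IP 2 alone gave 19 of the 28. The exception was Srcin1, a regulator of Src kinase, with 121.89 in depleted IP 1, against 807.5 in control IP 2.

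Both depleted lists kept the same region in S100a13 and Ythdc1 only. S100a13, a calcium-binding protein gene, had folds of 7.07 in depleted IP 1 and 9525 in depleted IP 2 at chr3:90524353-90524430, against 210.83 in control IP 1 and 1180 in control IP 2. Ythdc1, a nuclear reader of m6A-marked RNA that takes part in splicing, had 138.92 and 859.5 at chr5:86817016-86817333, against 253.33 and 724.0 in the control lists. In both genes the depleted values lay on both sides of the control values, and all 4 IgG lists held both regions. At the level of the gene, Col9a1, Ift172, Senp2, Slc44a1 and 1 gene with a predicted name were also in all 4 lists. Ift172, a subunit of the intraflagellar transport complex, had 471.67 in depleted IP 1 at a new position and 11.25 in depleted IP 2, against 4778 in control IP 1 and 3976 in control IP 2. Senp2, a SUMO protease, had at most 196.85 in depleted IP 1 and 45.0 in depleted IP 2, all at new positions, against 52.25 in control IP 1 and 36.84 in control IP 2. Slc44a1, a choline transporter, had at most 764.06 at new positions in depleted IP 1 and 24.26 at its kept region in depleted IP 2, against 385.0 in control IP 1 and 665.0 in control IP 2.

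There were 5 genes gained in both depleted lists. Rbm39, a U2AF-related splicing factor, shared chr2:156172969-156173022, with folds of 276.76 in depleted IP 1 and 130.56 in depleted IP 2 and no control IP site, and both depleted IgG lists held that region as well. Rps3, a protein of the small ribosomal subunit, shared chr7:99479857-99480213 with 40.88 and 85.96, in no IgG list. The other genes had separate positions in the depleted lists. Safb2, a scaffold attachment factor, had 628.39 in depleted IP 1 and 4647 in depleted IP 2, where the region overlapped a site of control IgG 2. Depleted IgG 2 also held a site of Safb2. Srsf2, an SR splicing factor, had 71.93 in depleted IP 1 at the listed start shown above, and 223.75 and 108.35 in depleted IP 2, where all 4 IgG lists held those sites. Eif4g2, a translation initiation factor, had 10.95 and 144.51.

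Sites of depleted IP 1 alone made up the largest class, with a median fold of 521, and 73.8% of them at the score ceiling. About as many of these regions touched IgG as did lost ones, with 33.0% in depleted IgG 1 and 34.2% in depleted IgG 2, against 16.9% and 16.3% in the control IgG lists. Cdon, a cell surface coreceptor for Hedgehog, had 6 sites with folds of 224.35 to 1392, and Nucb1, a calcium-binding protein of the Golgi, had 5 with 324.61 to 916.85. Cc2d2a, a protein of the ciliary transition zone, had 4 with 967.19 to 4886. Myh14, a nonmuscle myosin heavy chain whose human gene is linked to deafness, had 4 with 607.7 to 3768. Fam213a, a peroxiredoxin-like protein, reached 4498, Atp13a1, a transmembrane helix dislocase of the endoplasmic reticulum, 4202, Anp32b, a histone chaperone, 3459, and Clasrp, an SR-like protein that binds CLK kinases, 2835, with 4 sites each. Myh14 and Atp13a1 also had sites in all 4 IgG lists. Cdon, Cc2d2a and Clasrp had them in both depleted IgG lists, Anp32b in these and control IgG 1, and Fam213a in depleted IgG 2. Nucb1 had no IgG site.

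Sites of depleted IP 2 alone had a median fold of 1010 and 90.8% were at the score ceiling. Hardly any were in IgG, 3.45% in each depleted IgG list and 2.30% and 3.45% in the control ones. Chd4, the ATPase of the NuRD complex, had 3 sites with folds of 466.07, 241.82 and 222.5. The other named genes had 2 sites each and no IgG site. Pank2, a pantothenate kinase, had 8377 and 7900. Kcnip3, a calcium sensor also known as a transcriptional repressor, had 5248 and 5216. Bcl2l12, a relative of the BCL2 family, had 4707 and 3630, the first of them at a listed start. Slc26a4, which encodes pendrin, an anion exchanger of the inner ear, had 4620 and 2307. Arfgef2, an exchange factor of vesicle traffic, reached 4625, Fbxl17, an F-box protein, 4334, and Ranbp1, a regulator of the Ran GTPase, 4224. Depleted IP 1 and the control IP lists held no site in these 8 genes.

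Among 35 genes of the U1 snRNP and early spliceosome, 14 had an IP site and 6 were in both control lists. Of these 6, 1 was lost, 4 were kept in depleted IP 1 and 1 in depleted IP 2, beside 59.6%, 28.8% and 9.86% of all 416 control genes. Among the kept ones, Ddx17 had its depleted IP 1 site at a new position only. The median control fold of the 6 was 511, against 390 for all 416. The lost gene was Snrnp70, the U1 70K protein, with no depleted IP site against 76.4 in control IP 1 and 148.75 in control IP 2, although all 4 IgG lists held a site. Sf3b3, a subunit of the U2 snRNP, had at most 86.82 in depleted IP 1, against 925.0 in control IP 1 and 2281 in control IP 2. Ddx23, a helicase of the U5 snRNP, had 42.4, against 651.06 and 671.11. Sf3b3 and Ddx23 also had sites in all 4 IgG lists, while Ddx17 had none. A further 7 of the 14 were listed in depleted IP 1 only, among them Rbm25, beside 44.8% of all 892 genes with an IP site. Rbm39 was gained in both lists.

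Among 38 SR proteins, hnRNPs and their kinases, 5 were in both control lists. Of these, 4 were lost, beside 59.6% of all control genes: Clk2, a kinase that phosphorylates SR proteins, at 1547 in control IP 1 and 1196 in control IP 2, Akap8l as given above, Hnrnpu, a nuclear matrix RNA-binding protein, at 124.23 and 104.43, and the SR protein Srsf5 at 53.94 and 64.94. None of the 4 had an IgG site. Srsf7, another SR protein, kept the region at a listed start in depleted IP 1 with 31.8, against 349.16 in control IP 1 and 1027 in control IP 2, with a site in all 4 IgG lists. Of the 12 with an IP site, 5 were in depleted IP 1 only and 1, Srsf1, in depleted IP 2 only, beside 44.8% and 4.60% of all genes with an IP site.

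All 4 kinetochore and nuclear pore genes in both control lists, out of 36 looked for, were lost. They were Kif2c, a kinesin that depolymerises microtubules at centromeres (2207 in control IP 1 and 2124 in control IP 2), Mad1l1 and Nup160 as above, and Tpr, a protein of the nuclear basket (224.0 and 398.18). Tpr had sites in all 4 IgG lists and the other 3 in none. In a list this short the count is a description, to be read beside the 59.6% lost among all control genes.

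The 4 cell cycle and replication genes in both control lists comprised 1 lost and 3 kept in depleted IP 2, beside 59.6% and 9.86% of all control genes. Skp2, the F-box protein that directs degradation of the cell cycle inhibitor p27, had 66494 and 58743 in depleted IP 2, against 36.67 and 22.0 in control IP 1 and 53.26 at both in control IP 2. Ccnb2, a mitotic cyclin, had 41386 and 41548 in depleted IP 2, against 30.0 and 36.08 in control IP 1 and 33.29 and 26.63 in control IP 2. Mcm7, a subunit of the replicative helicase, had 15.62 in depleted IP 2, against 382.08 and 274.29. Its partner Mcm4 was lost, with 341.18 in control IP 1 and 647.06 in control IP 2. None of the 4 had an IgG site or a site in depleted IP 1.

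Chromatin genes were divided: of 6 in both control lists, 3 were lost, 1 was kept in depleted IP 1 and 2 in depleted IP 2, beside 59.6%, 28.8% and 9.86% of all control genes. The lost ones were Brd9, the histone methyltransferase Setd1a (1078 in control IP 1 and 598.0 in control IP 2) and the acetyltransferase Ep300 (236.59 and 144.26). Kdm2b, a histone demethylase, had 8.33 in depleted IP 2, against 6159 and 2005. Smarca4, the ATPase of BAF complexes, had 8106 and 3656 in depleted IP 2, against at most 8.62 in control IP 1 and 10.0 in control IP 2.

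Of the epithelial junction and identity genes, 4 were in both control lists and 3 were lost, beside 59.6% of all control genes. These were Dsp, the epithelial transcription factor Elf3 with a pair of regions of at most 2834 in control IP 1 and 2503 in control IP 2, and the keratin Krt18 with 43.79 and 132.37. Epcam, an epithelial adhesion molecule, had at most 25.24 in depleted IP 1, against 94.0 and 189.73, and sites in all 4 IgG lists. Krt8, the partner keratin of Krt18, and Tjp1, a tight junction scaffold, were in depleted IP 2 only, at most 1675 and 857.78.

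Cilium and planar polarity genes numbered 6 in both control lists, with 1 lost, 3 kept in depleted IP 1, 1 in depleted IP 2 and 1 in both, beside 59.6%, 28.8%, 9.86% and 1.68% of all control genes. Of the kept ones, Celsr1 had its depleted IP 1 site at a new position only. Ptk7, a planar polarity receptor, was the lost one, with 281.67 in control IP 1 and 768.18 in control IP 2 and sites in all 4 IgG lists. Rsph3b and its close relative Rsph3a, radial spoke proteins, had 503.58 and 47.7 in depleted IP 1, against 1329 and 629.31 in control IP 1 and 1322 and 493.33 in control IP 2, and reads of such similar genes may have been split between them. Of the Wnt genes, both that the control lists held were kept in depleted IP 1, beside 28.8% of all control genes. Fzd1, a Wnt receptor, had 53.0, against 420.42 in control IP 1 and 1710 in control IP 2. Axin2, a feedback inhibitor, had 31.8 at its kept region, against 150.6 in control IP 1 and 341.67 in control IP 2. It also lost a region 286 bp away, with 217.0 in control IP 1 and 134.26 in control IP 2. Both genes had sites in all 4 IgG lists.

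Inner ear genes were looked for too, with no share over all expressed genes to set beside them. Of 36 hair cell and stereocilia genes none was in a control IP list, and Barhl1, a homeobox gene of hair cells, and Myh14 were in depleted IP 1 only, Barhl1 with 23738 and a site in all 4 IgG lists. Of 26 supporting cell and Notch genes only Id2, an inhibitor of bHLH factors, had IP sites, with 11.36 in depleted IP 1, against 109.44 in control IP 1 and 137.45 in control IP 2. Of 24 apoptosis genes, Bax, which permeabilises mitochondria, was lost, with 292.0 in control IP 1 and 1245 in control IP 2 but sites in all 4 IgG lists. Bcl2, its antagonist, was in depleted IP 1 only at 291.48.

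Collagen and matrix genes showed how far region and gene can differ. Of 6 in both control lists, Col1a1 was lost, 3 were kept in depleted IP 1, 1 in depleted IP 2 and Col9a1 in both, where the shares over all control genes were 59.6%, 28.8%, 9.86% and 1.68%. Col9a1 kept 2 shared regions in depleted IP 2 only, and its sites in depleted IP 1, at most 1555, were at new positions. It also lost 2 shared regions, of at most 40.25 in control IP 1 and 74.82 in control IP 2. At the kept regions of Col9a3, another chain of collagen IX, depleted IP 1 had 10.6 at both, against 134.38 and 107.5 in control IP 1 and 271.88 and 249.29 in control IP 2, while its new sites in depleted IP 1 had 164.29 to 397.48. Col9a2, the remaining chain, had 13.02 at its kept region, against 33.86 in control IP 1 and 40.47 in control IP 2, and 734.39 and 418.5 at new sites. Col11a2, a chain of collagen XI, had new sites of at most 384.53 in depleted IP 2 and lost its shared regions, of at most 22.88 in control IP 1 and 65.02 in control IP 2. The matrix protein gene Sparc likewise had new sites only, at most 25.31 in depleted IP 1, and lost a region of 2.34 in control IP 1 and 5.19 in control IP 2. The median control fold of the 6 genes was 40.6, beside 390 over all 416 genes.

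Ribosomal protein genes were mostly new in depleted IP 1. Of 25 with an IP site, 15 were in depleted IP 1 only (beside 44.8% of all genes), 1 in depleted IP 2 only and Rps3 in both. Of 7 in both control lists 5 were lost (beside 59.6% of all control genes), led by Rpl37a with 111.97 in control IP 1 and 238.29 in control IP 2. The other 2 were kept in depleted IP 1 (beside 28.8%), and of these Rpl23a had its site at a new position only. Linker and core histone genes had 4 in both control lists, with 3 lost, beside the same 59.6%. Hist1h1b, a linker histone, was lost with 176.09 in control IP 1 and 285.36 in control IP 2, and Hist1h1e had 11.13 in depleted IP 1, against 83.8 and 199.92. Reads of ribosomal protein genes and their processed copies, and of near-identical histone genes, may have been divided, so these assignments are uncertain.

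Of 10 ubiquitin ligase genes in both control lists, 5 were lost, 2 were kept in depleted IP 1 and 3 in depleted IP 2, beside 59.6%, 28.8% and 9.86% of all control genes. Cul7, a cullin scaffold, had 10.88 in depleted IP 2, against 820.62 in control IP 1 and 1483 in control IP 2, and Rnf165, a RING finger protein, had 177.9, against 15084 and 10205. The remaining gene kept there, Skp2, went the opposite way. It had up to 66494 in depleted IP 2, against up to 36.67 in control IP 1 and 53.26 in control IP 2.

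Position along the gene and width were compared between classes with no test. Position was known for part of each class: 297 lost regions and 108 and 45 kept in depleted IP 1 and depleted IP 2. For regions listed only by depleted IP 1 or only by depleted IP 2 it was known for 519 and 62. The middle of a region lay at a median of 68.0% along its gene for lost regions, 66.0% for regions kept in depleted IP 1, 65.6% for those kept in depleted IP 2, and 62.4% and 61.9% for regions of depleted IP 1 only and depleted IP 2 only. Median widths were 110, 154, 118, 123 and 127 bp in the same classes. Of lost regions with a known position, 38.0% lay beyond 80% of the length of their gene. On the same basis the share was 38.9% for those kept in depleted IP 1 and 26.7% for those kept in depleted IP 2. It was 36.2% for regions of depleted IP 1 only and 29% for those of depleted IP 2 only. The 28 regions in 1 control list and at least 1 depleted list had a median width of 182 bp. The 20 of them with a known position lay farther along, at a median of 88.0%, with 55.0% beyond 80%. Exon and intron positions were not analysed here.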

How the data were processed

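RNA immunoprecipitation libraries of mouse inner ear organoids were used, 2 depleted and 2 control IP libraries and, beside them, 2 IgG libraries of each condition. The lists labelled Input hold the IP sites that overlap no site of the matching IgG list, as found by comparing the files, and served as an alternative. Reads were trimmed with cutadapt 1.9.3 and aligned with HISAT2 2.0.4, both named in the submitters' processing notes, which give the build mm8. Of 1350 regions whose gene was in the RefSeq table, 1316 (97.5%) lay inside that gene on GRCm38.p6, so printed coordinates, counted from 1, are read as that build. The peak caller is not given in the sources used here, but peak names in the lists start with MACS.

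Each list was called per library. The fold of each site is the authors' ratio over background, the false discovery rate is the authors' percent, and the deposited score is -10 times log10 of the p-value, as a column header shows, with a ceiling near 3100. Site positions were deposited as chromosome, start and end. Read counts and depth are unknown, so no count test was possible, and the number of lists limits the precision.

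Sites were merged with pandas 2.3.3 and numpy 2.4.6 in Python 3.11.15. Intervals are 95% Clopper-Pearson intervals and list lengths were compared by exact permutation (scipy 1.17.1). They cover counting error only. Merging was tested on simulated lists. Groups and numbers came from the sample titles.

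The set of regions and the gene lists were chosen with earlier results of these data known, so they are no independent evidence. Named genes are Rbm25, the 8 genes with most regions of a class (ties by the authors' fold), the 5 lost regions of highest control fold, all genes of classes of 8 or fewer, and the leading 3 members of each gene list by control fold, or all where 5 or fewer had a control site. Others named were chosen after their values were seen. Predicted genes were counted, not named, and 1 gene that met the rule is not reported here. Sequences at gene starts came from RefSeq. Alternatives were a larger overlap, joined neighbours, filters on fold, score, width or false discovery rate, lists of equal length, the Input lists, and each library left out.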

Additional observations from a re-analysis of the deposited data

How the results depend on the processing

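Regions in both control and neither depleted IP lists numbered 384 in the main setting and stayed within 1.5 times of that with a 50% overlap, with joined neighbouring sites, and with filters on fold, score or false discovery rate, but not with sites of 100 bp or more (209) or lists cut to the 165 highest-scoring sites (109). The lost share of 67.4% was 98.5% at sites over each list's median fold, 74.5% at scores of 100 or more, 86.7% at a false discovery rate under 100%, 82.0% at equal list length and 82.7% with the Input lists. Regions kept in depleted IP 1 (131) numbered 4, 80, 63, 0 and 11 at the median fold, at 100 bp, under a false discovery rate of 100%, at equal length and with the Input lists. Regions kept in depleted IP 2 (53) numbered 0 at the median fold, 29 at 100 bp, 2 under a false discovery rate of 100% and 24 at equal length. Regions gained in both (2) numbered 0 at the median fold, 1 at 100 bp and 1 at equal length. Lost genes (248) numbered 82 at equal length, and genes with a region lost but a site elsewhere (40) numbered 9 at the median fold, 23 at 100 bp, 5 at equal length and 25 with the Input lists. Filters take sites from control and depleted lists alike, so these counts can fall or rise. Lost regions rose to 414 at scores of 100 or more and to 431 under a false discovery rate of 100%. Lost genes rose to 261 and 273 at the same filters. Causes of these shifts were not tested. The Input lists leave out IP sites that overlap IgG, so that setting is no separate check from the IgG overlaps above. With each library left out in turn, lost regions ran from 392 to 515, the lost share from 66.0% to 90.4%, regions kept in depleted IP 1 from 133 to 136 and in depleted IP 2 from 55 to 67, gained regions from 2 to 671, lost genes from 250 to 368 and genes with a site elsewhere from 13 to 42. The gained count of 671 is depleted IP 1 alone against the control lists, and 89 is depleted IP 2 alone. Depleted minus control ran from -428.5 to 219.5 sites and from -321 to 109 genes, and reversed only without depleted replicate 2 (219.5 and 109). No paired analysis was possible because the counts of regions come from no test and nothing ties same-numbered libraries of the conditions together. Depth is unknown, so a missing site is not a measured absence.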
